A study of Mus musculus with 26 samples.

Results

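The autophagy machinery was described here as 38 genes, grouped by role into 5 for initiation, 11 for nucleation, 15 for conjugation, 4 cargo receptors and 3 for the lysosome. The members were taken by gene symbol from count tables of 55487 genes, and all 38 were found once and stood among the 18050 genes with enough counts to be tested. The tissue was frontal cortex of adolescent mice, and the question was which genes differ in mRNA level between HET animals and WT littermates. HET mice carry a frameshift variant of Adnp, whose protein binds DNA and takes part in chromatin complexes, on 1 of the 2 alleles, and WT mice carry the normal gene. RNA sequencing covered 7 HET and 7 WT mice. ATAC-seq, in which a transposase cuts accessible DNA and so marks open chromatin, came as a single peak list for each genotype. Strain, sex and the exact age were not used here, and no further allele or treatment is named in the labels.

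Autophagy wraps part of the cytoplasm in a double membrane, the autophagosome, and delivers it to the lysosome for breakdown. A kinase complex starts the process, a lipid kinase complex marks the site where the membrane grows, and ubiquitin-like conjugation attaches proteins of the LC3 and GABARAP families to that membrane, where cargo receptors bind them. Neurons depend on the pathway to clear protein aggregates and worn organelles, and mice that lack Atg5 or Atg7 in the nervous system are known to develop neurodegeneration.

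Of the 38 members, 1 rose in HET cortex and 0 fell (edgeR, quasi-likelihood test, adjusted p under 0.05), while 37 did not pass. The member that rose was Atg2b, which encodes a protein that moves lipids into the growing autophagosome membrane. Across all genes tested, 175 of 18050 passed (0.970%), of which 106 rose (0.587%) and 69 fell (0.382%). The members' log2 fold changes ran from -0.28 for Atg101 to 0.33 for Optn, with a median of -0.03, against a median of 0.02 over all genes tested. The estimate was below 0 for 24 members and above 0 for 14, beside 8431 below and 9619 above over all 18050 genes tested. For 26 of the 38 members the 95% confidence interval lay wholly within a 1.25-fold difference either way, against 35.0% of all genes tested. The median SE was 0.07 for the members and 0.13 over all genes tested, so these shares were not set at like precision. Among 128 further pathway genes, described below, the share was 71.9%. At an adjusted p under 0.1 there were 5 members, Atg2b and the lower estimates of Atg101, Map1lc3a, Atg12 and Atg4c, beside 6.62% of all genes. At an unadjusted p under 0.05 there were 10 members lower in HET, beside 10.4% of all genes, and 3 higher, beside 11.8%. Other tools made more calls from the same counts, for members and for genes in general. DESeq2 called 6 members (Atg2b higher, and Atg101, Map1lc3a, Atg12, Atg4c and Gabarapl1 lower) where it called 8.90% of the 17000 genes to which it gave an adjusted p. The limma-voom fit with sample weights called 5, the same set without Atg4c, where it called 10.4% of all genes.

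**Figure D1:**
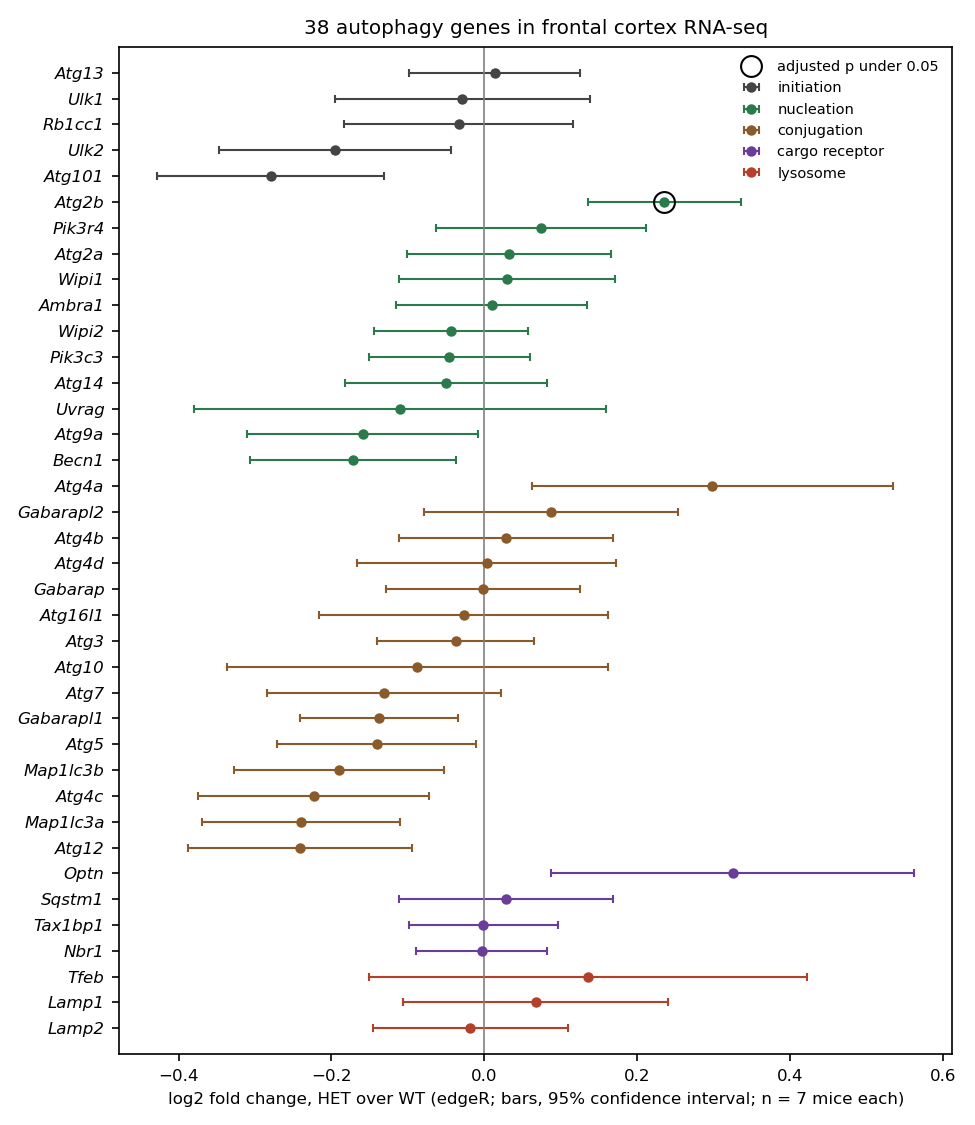
Log2 fold change of each of the 38 autophagy genes, HET over WT, from edgeR (x axis), with genes down the page by role group and by size within it. Points are estimates from 7 HET and 7 WT libraries, bars are 95% confidence intervals, and the ring marks Atg2b at 0.24, the member at an adjusted p under 0.05; all bounds lie between -0.43 and 0.56.

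The HET libraries held 33280785 to 47079906 counts and the WT libraries 32814841 to 48291175, so that the lowest member count in any library was 174, for Atg4a. Adnp itself ran from 5.34 to 8.68 CPM in HET and from 5.67 to 7.84 CPM in WT. Its log2 fold change was 0.07 (SE 0.13, adjusted p 0.772, edgeR), and a frameshift need not lower the mRNA. Marker levels of several cell types and regions differed between libraries and between the group means, though none of the excitatory or microglial markers passed the test. The mean log2 CPM of 10 markers of excitatory neurons was 5.81 ± 1.15 in HET and 7.04 ± 0.76 in WT (SD, n = 7 each), and all 10 estimates were below 0, with 0 of 10 past the test. It was lowest in HET 4 (3.63) and HET 1, and within WT in WT 4 (5.49), the other WT libraries standing between 6.86 and 7.69. The 5 microglial markers averaged 5.23 ± 0.22 in HET and 5.48 ± 0.09 in WT, with all 5 estimates below 0. Markers of thalamus averaged 4.98 ± 1.25 in HET and 4.13 ± 0.82 in WT, with all 8 estimates above 0 and 0 past the test. Summed, they ran from 188 to 1782 CPM in HET and from 159 to 656 CPM in WT. Markers of striatum averaged 5.66 ± 1.66 in HET and 5.57 ± 1.35 in WT, with all 7 estimates above 0 and 0 past the test. All 56 markers of 9 cell types and regions were detected in every library, the cortical excitatory ones included. In bulk tissue, fewer cells of a type, less RNA per cell and a different share of regions in the tissue taken cannot be told apart. Values with excitatory markers as a covariate are given beside several members, and the part of other cell types in the members' differences was not tested. With that covariate some estimates moved towards 0 and others away from it. The median absolute log2 fold change of the 38 members was 0.07 in the main fit and 0.09 with the covariate. Over all genes tested it was 0.15 and 0.12.

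**Figure D2:**
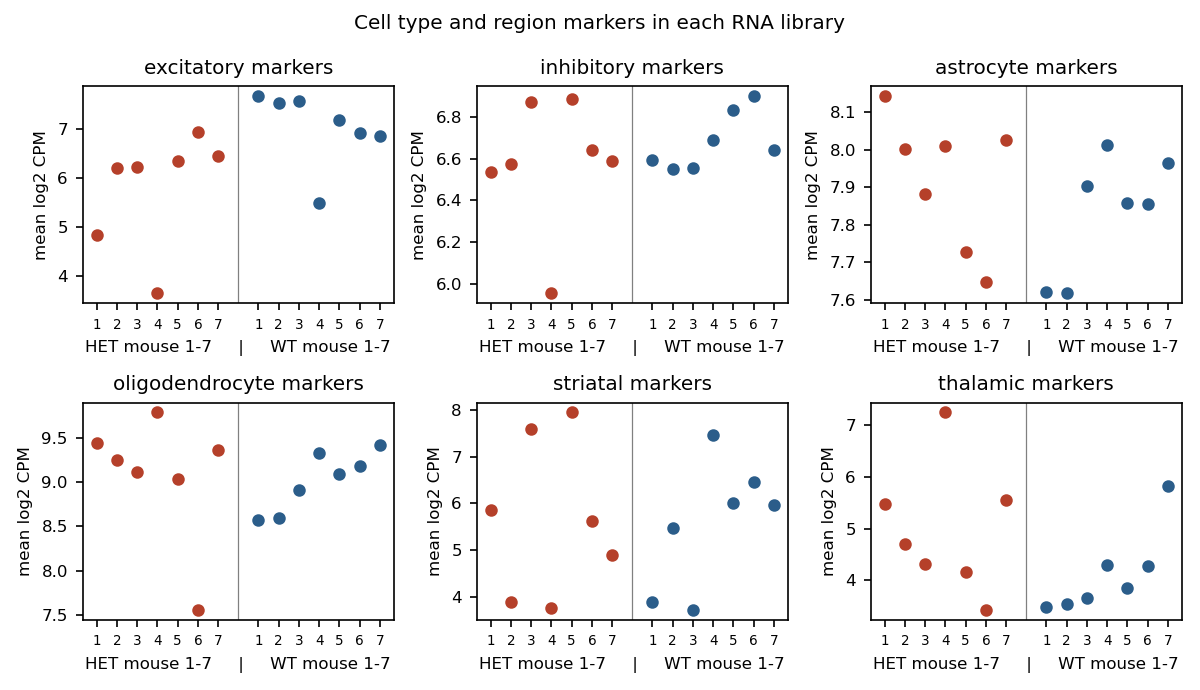
Mean log2 CPM of the markers of 6 cell types and regions in each RNA library, HET mice 1 to 7 left of WT mice 1 to 7. Excitatory markers run from 3.63 to 6.95 in HET and from 5.49 to 7.69 in WT, with HET 4, HET 1 and WT 4 lowest; HET 6 is lowest in oligodendrocyte markers at 7.56.

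Initiation rests on the ULK complex, in which either of the kinases Ulk1 and Ulk2 joins the scaffold proteins Atg13, Rb1cc1 and Atg101. None of the 5 genes passed the test. Atg101, whose protein steadies Atg13 within the complex, had the lowest estimate of the 38 members. It stood between 17.5 and 22.8 CPM in the HET libraries (median 19.9) and between 20.7 and 25.9 CPM in the WT libraries (median 24.9). Of the 7 HET libraries, 5 lay below every WT library and all 7 below the WT mean. Its log2 fold change was -0.28 (SE 0.07), with an adjusted p of 0.0626 in edgeR and 0.00828 in DESeq2, and with the excitatory covariate it was -0.17 at an adjusted p of 0.359.

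Ulk2 ran from 98.4 to 125 CPM in HET (median 107), against 102.3 to 141 CPM in WT (median 125). The groups overlapped, since WT 4 lay below all HET libraries but HET 4, and HET 5 lay above 4 of the WT libraries. Its log2 fold change was -0.20 (SE 0.07, adjusted p 0.135, edgeR), and -0.07 with the excitatory covariate. Ulk1 ran from 89.2 to 101 CPM in HET (median 93.7), against 74.0 to 113 CPM in WT (median 95.1), so that the HET range lay within the WT range. With a log2 fold change of -0.03 (SE 0.08, adjusted p 0.863, edgeR), Ulk1 did not pass, and the 95% confidence interval reached from -0.19 to 0.14. Atg13, the most abundant initiation gene per length at 84.6 TPM in HET and 80.1 TPM in WT, had 96.4 to 111 CPM in HET (median 97.4), against 92.7 to 112 CPM in WT (median 95.3). Its estimate was 0.01 (SE 0.05, adjusted p 0.905, edgeR), with the groups overlapping throughout. Rb1cc1 had an estimate of -0.03 (SE 0.07, adjusted p 0.818, edgeR).

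Nucleation joins the lipid kinase Pik3c3 (Vps34), its anchor Pik3r4 and Becn1 with either Atg14 or Uvrag, while Ambra1 regulates Becn1. It also takes in the vesicle protein Atg9a, the lipid transporters Atg2a and Atg2b, and Wipi1 and Wipi2, which read the lipid that Pik3c3 makes. Of the 11 genes, Atg2b rose and the other 10 did not pass. Atg2b (ENSMUSG00000041341, GRCm38 chromosome 12, 105616136 to 105685211, minus strand) had 60.4, 61.0, 58.9, 62.4, 57.0, 62.1 and 66.5 CPM in HET 1 to 7, against 52.0, 56.3, 48.4, 53.0, 49.6, 50.5 and 54.1 CPM in WT 1 to 7. Every HET library stood above every WT library, narrowly so between HET 5 and WT 2. Atg2b was the 1 member whose groups were apart, and over all genes tested 0.432% had all HET libraries above all WT libraries. The means were 61.2 ± 2.99 CPM in HET and 52.0 ± 2.73 CPM in WT (SD), for a log2 fold change of 0.24 (SE 0.05, 95% confidence interval 0.14 to 0.34). The adjusted p was 0.0381 with edgeR. DESeq2 gave an adjusted p of 0.000488 and limma-voom 0.00955.

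The estimate for Atg2b moved little under other settings, while the call was less firm. With the excitatory covariate it was 0.23 at an adjusted p of 0.187, and with excitatory, striatal and thalamic markers together it was 0.23 at an adjusted p of 0.144. Without HET 1 and HET 4, the libraries lowest in excitatory markers, it was 0.23 at an adjusted p of 0.131. Without WT 4 as well it was 0.24 at an adjusted p of 0.0414. The call was missed in edgeR with no filter on low counts (0.23, adjusted p 0.0807) and with a replicate block (0.24, adjusted p 0.0701). Leaving out 1 library at a time gave 0.21 to 0.26, and the call held in 4 of the 14 fits (without HET 3, HET 5, HET 6 or WT 4) and missed the threshold in the other 10, at an adjusted p of at most 0.0971. Of the 13456 exon bases of the gene, 383 overlap Gskip, and reads falling in such overlaps were not counted. The 250 bases before its RefSeq start are shown because Atg2b is the member that rose; all of them lay under a promoter peak in both ATAC-seq lists, and they hold no copy of CACGTG, the core letters of the element bound by the lysosome regulator TFEB (RefSeq, GRCm38.p6, chr12:105685242-105685491, minus strand, 5′ to 3′, lower case throughout).
Atg2b: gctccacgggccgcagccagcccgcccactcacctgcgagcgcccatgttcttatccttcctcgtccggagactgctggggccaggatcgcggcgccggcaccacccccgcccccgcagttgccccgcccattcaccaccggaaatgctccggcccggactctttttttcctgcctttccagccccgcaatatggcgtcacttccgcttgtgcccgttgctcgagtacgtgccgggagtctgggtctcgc

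Its paralog Atg2a ran from 56.3 to 69.1 CPM in HET (median 62.8), against 55.8 to 69.5 CPM in WT (median 59.2), and these ranges overlapped almost wholly. The log2 fold change of Atg2a was 0.03 (SE 0.06, adjusted p 0.805, edgeR). Becn1, the Beclin 1 gene, ran from 49.1 to 63.1 CPM in HET (median 53.8), against 57.0 to 69.5 CPM in WT (median 61.0). Of the HET libraries, 4 lay below every WT library. The Becn1 estimate was a log2 fold change of -0.17 (SE 0.06, adjusted p 0.138, edgeR) and -0.05 with the excitatory covariate, and 43.9% of its exon bases overlap Cntd1, where counting without strand drops reads. Atg9a, whose protein is carried on the vesicles that seed the membrane, was the second lowest of the group, with 68.3 to 83.8 CPM in HET (median 74.2), against 66.8 to 94.3 CPM in WT (median 83.6). Its log2 fold change of -0.16 (SE 0.07, adjusted p 0.204, edgeR) was -0.02 with the excitatory covariate, and 32.6% of its exon bases are shared with other genes.

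Pik3c3, the lipid kinase itself, had 45.2 to 55.9 CPM in HET (median 48.7), against 47.5 to 53.9 CPM in WT (median 50.7). The highest HET value came from HET 4, and the other 6 stood at 49.2 CPM or below. Its estimate was -0.05 (SE 0.05, adjusted p 0.625, edgeR), with an interval from -0.15 to 0.06. With the excitatory covariate the Pik3c3 estimate was -0.10 (adjusted p 0.504). The other 6 nucleation genes lay between -0.11 for Uvrag and 0.07 for Pik3r4, with adjusted p-values of at least 0.525 in edgeR, and Ambra1, Wipi1, Wipi2 and Atg14 lay within that span. Uvrag was the most variable of them, with means of 36.3 ± 5.98 CPM over the HET mice and 39.2 ± 7.90 CPM over the WT mice, and its estimate turned to 0.13 (adjusted p 0.658, edgeR) with the excitatory covariate.

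**Figure D3:**
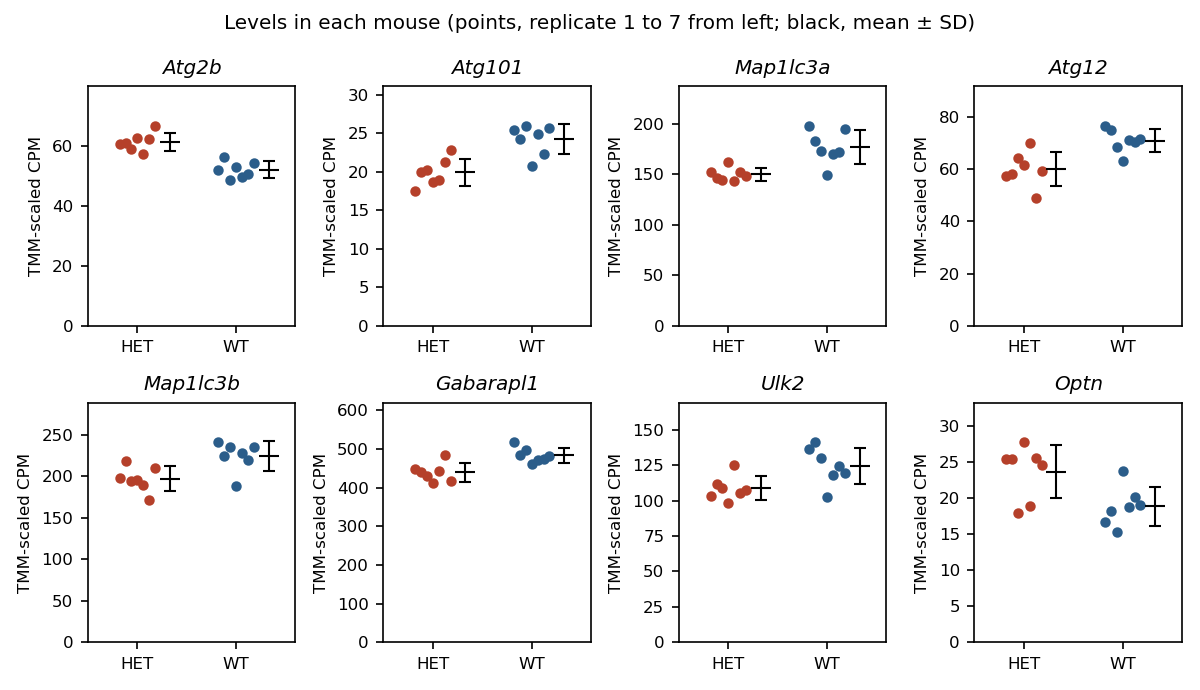
TMM-scaled CPM (y axis) of 8 autophagy genes in each mouse, HET left of WT; points are mice in replicate order and black marks are the mean ± SD of 7. Atg2b is the gene whose HET points (57.0 to 66.5) all lie above its WT points (48.4 to 56.3); in the other 7 panels the groups overlap.

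Conjugation runs from the E1-like enzyme Atg7 through the E2-like enzymes Atg3 and Atg10 to the Atg12, Atg5 and Atg16l1 complex, which attaches LC3 and GABARAP proteins to the membrane lipid. The Atg4 proteases trim those proteins beforehand and release them afterwards. None of the 15 genes passed the test, with 11 estimates below 0 and 4 above, and a median log2 fold change of -0.09. Over all genes tested, 8431 of 18050 estimates were below 0. At an unadjusted p under 0.05, 6 were lower in HET, beside 10.4% of all genes, and 1 was higher, beside 11.8%.

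Atg12, the ubiquitin-like protein that is joined to Atg5, had 49.0 to 70.1 CPM in HET (median 59.3), against 63.2 to 76.5 CPM in WT (median 71.3). HET 6 was lowest and HET 5 the highest HET library, and 5 HET libraries lay below every WT one. The log2 fold change was -0.24 (SE 0.07, adjusted p 0.0809, edgeR), and -0.22 with the excitatory covariate at an adjusted p of 0.318. Its partner Atg5 had an estimate of -0.14 (SE 0.06, adjusted p 0.191, edgeR) and Atg16l1 of -0.03 (SE 0.09, adjusted p 0.888). With the excitatory covariate these were -0.18 (adjusted p 0.365) for Atg5 and 0.14 (adjusted p 0.424) for Atg16l1. Atg7 ran from 26.9 to 32.8 CPM in HET (median 28.4), against 25.0 to 35.2 CPM in WT (median 32.9), so the groups overlapped across the whole HET range. The Atg7 estimate was a log2 fold change of -0.13 (SE 0.07, adjusted p 0.294, edgeR). The E2-like genes Atg3 and Atg10 had estimates of -0.04 and -0.09, at adjusted p-values of 0.690 and 0.698 in edgeR.

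Among the Atg8 relatives, which coat the membrane and hold its cargo, Gabarapl1 was the most abundant of all 38 members per length, at 809 ± 32.6 TPM in HET and 851 ± 19.3 TPM in WT (SD, n = 7 each). It gave 45.5% of the summed TPM of the 5 relatives in HET and 45.7% in WT. Map1lc3a gave 26.4% in HET and 28.4% in WT, and Gabarap 12.8% in HET and 11.8% in WT. Gabarapl2 gave 9.79% in HET and 8.43% in WT, and Map1lc3b 5.46% in HET and 5.67% in WT. The order of the 5 was the same in both genotypes, and their sum was 1779 ± 38.7 TPM in HET and 1863 ± 47.2 TPM in WT. Both summed levels and shares are descriptions per length, on annotated exon lengths. TPM are not TMM-scaled: Nbr1, at 168 CPM in both genotypes, stood at 90.4 TPM in HET and 86.6 TPM in WT. TPM therefore serve to rank genes within a genotype, and CPM to compare the genotypes.

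Map1lc3a, which encodes LC3A, had 152, 147, 144, 162, 143, 152 and 149 CPM in HET 1 to 7, against 197.6, 183, 172, 149, 169.8, 172 and 195 CPM in WT 1 to 7. All HET values lay below the WT mean and 4 below every WT library, while WT 4 stood among the HET libraries. The log2 fold change was -0.24 (SE 0.06), with an adjusted p of 0.0632 in edgeR and 0.248 at an estimate of -0.23 with the excitatory covariate. Map1lc3b, the LC3B gene, had 171 to 218 CPM in HET (median 195), against 188 to 240.4 CPM in WT (median 228). Here too the lowest WT library was WT 4, and the next stood at 219.7 CPM. Its log2 fold change was -0.19 (SE 0.06, adjusted p 0.116, edgeR). Gabarapl1 ran from 413 to 485 CPM in HET (median 440.1), against 461 to 517 CPM in WT (median 483). Of the HET libraries, 6 lay below every WT library and HET 6 lay within the WT range. For Gabarapl1 the log2 fold change was -0.14 (SE 0.05, adjusted p 0.126, edgeR), and 28.3% of its exon bases overlap another annotated gene. The estimate was -0.09 (adjusted p 0.524) with the excitatory covariate. Gabarap, by contrast, had an estimate of -0.0018 (SE 0.06, adjusted p 0.989, edgeR), with 107 to 125 CPM in HET (median 111) and 103 to 127 CPM in WT (median 116). Gabarapl2 had an estimate of 0.09 (SE 0.08, adjusted p 0.538, edgeR), which turned to -0.08 (adjusted p 0.614) with the excitatory covariate. Whether the relatives differ from each other in their response was tested only for the ratios below.

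The 4 Atg4 proteases did not pass the test either. Atg4c made up 44.9% of their summed TPM in HET and 49.7% in WT, and Atg4b 31.9% in HET and 29.9% in WT. Atg4d made up 13.3% in HET and 12.6% in WT, and Atg4a 9.97% in HET and 7.73% in WT. Atg4c had the lowest estimate, -0.22 (SE 0.07, adjusted p just under 0.1, edgeR), with every HET library below the WT mean. With the excitatory covariate the Atg4c estimate was -0.13 (adjusted p 0.532). Atg4a had the highest, 0.30 (SE 0.11, adjusted p 0.141, edgeR), from 5.18 to 7.48 CPM in HET (median 5.86), against 4.09 to 6.14 CPM in WT (median 4.91). Every HET library lay above the WT mean of Atg4a and 2 above every WT library. The Atg4a estimate with the excitatory covariate was 0.37 (adjusted p 0.289). Atg4a has an annotated pseudogene copy with which it can share reads, so its level is uncertain.

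Cargo receptors bind ubiquitin-marked material with one arm and the LC3 and GABARAP coat with the other. None of the 4 passed. Sqstm1, the p62 gene and the most abundant receptor per length at 521 ± 47.8 TPM in HET and 488 ± 23.6 TPM in WT, had 406 to 539 CPM in HET (median 469), against 436 to 498 CPM in WT (median 465). HET libraries lay on both sides of the WT range, 3 above it and 2 below. The Sqstm1 estimate was a log2 fold change of 0.03 (SE 0.07, adjusted p 0.835, edgeR), with an interval from -0.11 to 0.17, and 17.3% of its exon bases overlap Mrnip. Optn, the optineurin gene, had the highest estimate of the 38 members. It stood at 25.4, 25.5, 18.0, 27.7, 18.9, 25.6 and 24.6 CPM in HET 1 to 7, against 16.8, 18.3, 15.3, 23.8, 18.8, 20.1 and 19.0 CPM in WT 1 to 7. Of the HET libraries, 5 lay above every WT library and HET 3 and HET 5 lay among them, while WT 4, low in excitatory markers, was the highest WT library. For Optn the log2 fold change was 0.33 (SE 0.11, adjusted p 0.118, edgeR), and 0.17 with the excitatory covariate (adjusted p 0.560). Nbr1 and Tax1bp1 had estimates of -0.0031 and -0.0012, with 95% confidence intervals from -0.09 to 0.08 and from -0.10 to 0.10, and were among the least variable members, with Nbr1 at 168 ± 4.61 CPM in HET, against 168 ± 5.85 CPM in WT.

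Lamp1 and Lamp2 encode the main membrane glycoproteins of the lysosome, and Tfeb encodes a transcription factor that switches on lysosome and autophagy genes when nutrients are short. None of the 3 passed. Lamp1 had 239.5 to 322 CPM in HET (median 263), against 234 to 297 CPM in WT (median 261). Its estimate on the log2 scale was 0.07 (SE 0.08, adjusted p 0.667, edgeR). The groups overlapped, and the sign of the Lamp1 estimate turned with the excitatory covariate, to -0.11 (adjusted p 0.498). Lamp2 had 73.4 to 89.4 CPM in HET (median 80.7), against 72.2 to 90.1 CPM in WT (median 83.5), with an estimate of -0.02 (SE 0.06, adjusted p 0.887, edgeR), or -0.11 with the excitatory covariate. Tfeb was the least abundant member per length, at 6.53 ± 1.40 TPM in HET and 5.68 ± 0.857 TPM in WT, and ran from 6.62 to 13.0 CPM in HET (median 10.2), against 7.17 to 11.5 CPM in WT (median 8.86). The Tfeb estimate was 0.14 (SE 0.13, adjusted p 0.585, edgeR), with the widest interval of the 38, from -0.15 to 0.42, and it turned to -0.09 with the excitatory covariate. Differences of that size in the transcript of Tfeb were not detectable at this spread.

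Ratios between paralogs within a library need no scaling between libraries, and 5 were compared per length by a two-sided exact permutation test over 3432 assignments, with Benjamini-Hochberg adjustment over the 5. For Ulk2 over Ulk1 the median ratio was 1.22 in HET (1.14 to 1.52), against 1.42 in WT (1.31 to 1.5). Of the HET libraries, 6 lay below every WT library and HET 5 lay above them all. The mean log2 ratio was 0.32 ± 0.14 in HET and 0.49 ± 0.06 in WT (SD, n = 7 each), a difference of -0.17 with an exact permutation p of 0.0146 and an adjusted p of 0.0466. For Atg2b over Atg2a the median ratio was 0.599 in HET (0.472 to 0.630), against 0.478 in WT (0.456 to 0.554), and 5 HET libraries lay above every WT library. The mean log2 ratio was -0.82 ± 0.16 in HET and -1.03 ± 0.11 in WT (SD, n = 7 each), a difference of 0.20 with an exact permutation p of 0.0186 and an adjusted p of 0.0466.

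Both calls were lost when most single libraries were left out. Leaving out 1 library at a time kept the difference between -0.22 and -0.15 for Ulk2 over Ulk1, but the adjusted exact p stayed under 0.05 only without HET 5 or without WT 1 and reached at most 0.0903 otherwise. For Atg2b over Atg2a the difference stayed between 0.18 and 0.25, and the adjusted exact p was under 0.05 only without HET 5. The other 3 ratios did not pass. Map1lc3b over Map1lc3a differed by 0.05 on the log2 scale (exact permutation p 0.442), Gabarapl1 over Gabarap by -0.14 (p 0.0932, adjusted 0.146, exact) and Lamp2 over Lamp1 by -0.08 (p 0.117, adjusted 0.146, exact).

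**Figure D4:**
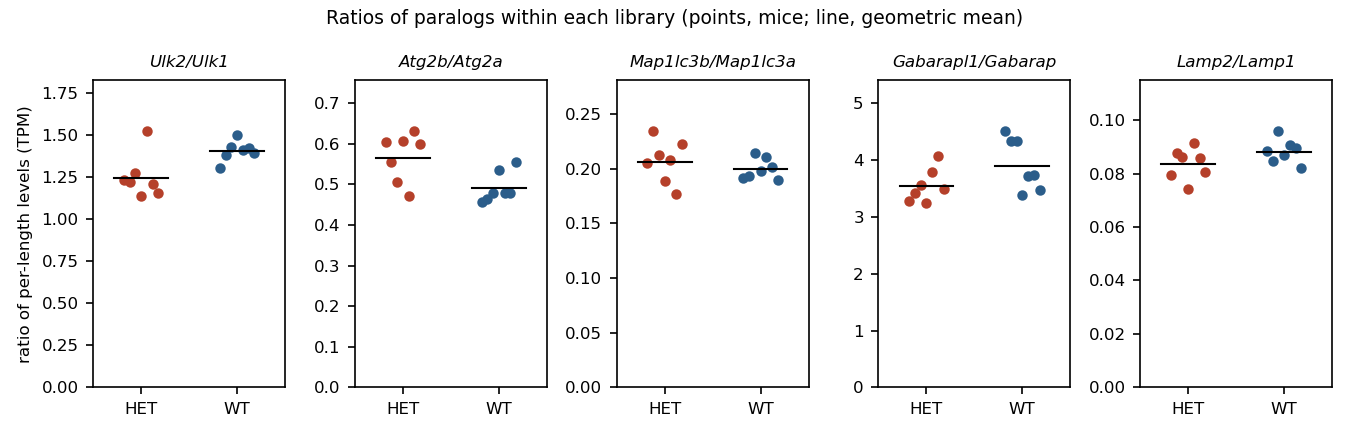
Ratio of per-length levels (TPM, y axis) of 5 pairs of autophagy paralogs in each mouse, HET left of WT; points are mice in replicate order and lines are geometric means of 7. For Ulk2/Ulk1, 6 HET points lie below all WT points and HET 5 lies above them at 1.52; for Atg2b/Atg2a, 5 HET points lie above all WT points.

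Promoter peaks were counted for a member where an ATAC-seq peak lay within 1000 bases of its gene start. With 1 merged list per genotype there was no replicate and no test, and the lists differ in length, at 30862 peaks in HET (median width 423 bases) and 19272 in WT (490 bases). A promoter peak was listed for 33 members in HET, beside 63.7% of all genes, and for 30 in WT, beside 57.3%. Both lists held one at 30 of the 38 members, and at 55.6% of all genes. All genes were not matched to the members by mRNA level, so these shares are not a result about the members. The HET list alone held a peak at 3 members, Pik3c3, Atg7 and Lamp2, where 8.09% of all genes had one, and the WT list alone held one at 0 members, where 1.63% of all genes did. The Pik3c3 peak ran from 53 bases before to 324 bases after the start, that of Atg7 from 152 to 527 bases after it, and that of Lamp2 from 137 before to 88 after it, with widths of 378, 376 and 226 bases. The mRNA log2 fold changes of these 3 genes were -0.05, -0.13 and -0.02, all short of the threshold. When the HET list was limited to its widest peaks, in the number of the WT list, the count of members in the HET list alone was 2, beside 4.68% of all genes. The member lost was Lamp2. At the starts that RefSeq gives, neither list held a peak for Atg7, while Pik3c3 and Lamp2 had one in the HET list alone.

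Neither list held a promoter peak for Rb1cc1, Pik3r4, Atg14, Wipi2 and Atg4b. For Atg14, Wipi2 and Atg4b both lists held one at a start that RefSeq gives and that differs from the annotated one. Of the 30 members with a peak in both lists, 21 peaks were wider in HET and 9 in WT, with medians of 767 bases in HET and 710.5 bases in WT. The same count over all genes was not made, so these widths are not a result about the members. The lists carry no height, so a wider peak is a longer called stretch and not a stronger signal. At Atg2b the peak ran from 380 bases before to 239 after the start in HET, and from 390 before to 176 after it in WT. At Atg101 it was 386 bases wide in HET and 893 in WT, and at Atg12 566 bases in HET and 712 in WT, among the 9 members where the WT peak was the wider.

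**Figure D5:**
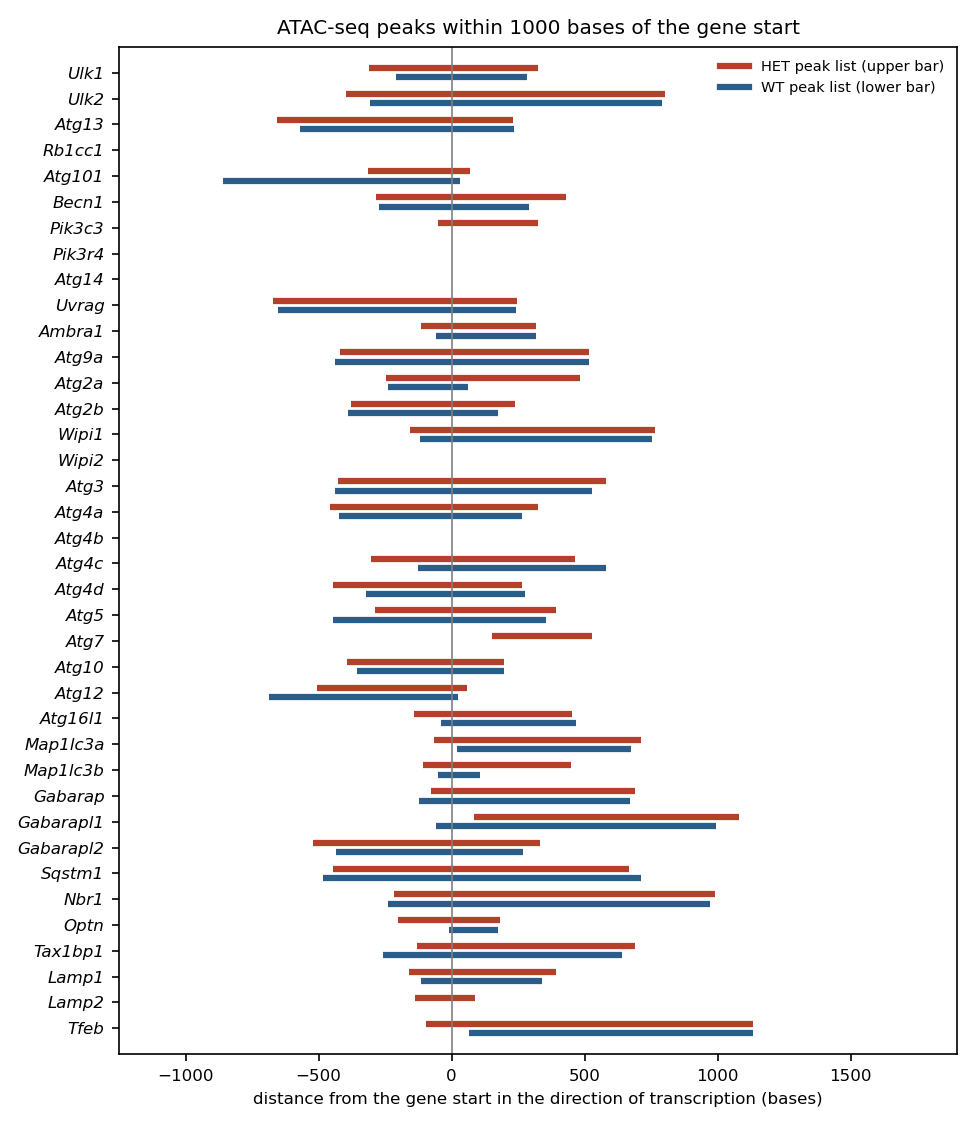
ATAC-seq peaks within 1000 bases of the gene start of the 38 autophagy genes, by distance from the start in the direction of transcription (x axis, bases); the upper bar of each gene is the HET list and the lower bar the WT list. The HET list covers 33 genes and the WT list 30; Pik3c3, Atg7 and Lamp2 have a HET bar alone, and 5 genes have none.

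RefSeq promoters were at hand for 32 of the 38 members, and the 250 bases before each start were searched for CACGTG, which reads the same on both strands and is the E-box core of the element that TFEB binds in lysosome genes. It was found in 4 member genes, Lamp1, Atg3, Atg5 and Atg7, beside 6.02% of the 32851 RefSeq promoters searched and 6.86% of the genes they belong to. Lamp1 held 4 copies, whose first bases lie 61, 45, 28 and 15 bases before the start; 4 or more copies occur in 7 promoters of the table (0.0213%). Atg3 held 2 copies, at 94 and 71 bases before the start, and Atg5 held 1 at 14 bases. The copy at Atg7 lies 132 bases before a RefSeq start that is 27999 bases from the annotated gene start and its HET peak. The longer GTCACGTG, which contains CACGTG and was sought on both strands, was found at Lamp1, Atg3 and Atg7, beside 1.85% of promoters, and the forkhead sequence GTAAACA, on either strand, at 0 members, beside 3.17%. The median share of G and C was 59.2% in the member promoters and 52.4% over all RefSeq promoters. The shares with a match were therefore not set at like base content. A match describes the letters alone and shows no binding.

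The promoters of Lamp1, Atg3 and Atg5 are shown because their E-box copies, in capitals, all lay under the promoter peak of both lists (RefSeq, GRCm38.p6, plus strand, 5′ to 3′; chr8:13158911-13159160, chr16:45158579-45158828 and chr10:44268089-44268338). At Lamp1, 159 of the 250 bases were covered by the HET peak and 115 by the WT peak, and at Atg3 and Atg5 all 250 were covered by both.
Lamp1: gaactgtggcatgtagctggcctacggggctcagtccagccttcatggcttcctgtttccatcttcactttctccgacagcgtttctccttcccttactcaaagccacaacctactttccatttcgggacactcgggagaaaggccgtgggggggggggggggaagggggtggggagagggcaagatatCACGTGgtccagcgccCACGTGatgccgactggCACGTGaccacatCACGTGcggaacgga
Atg3: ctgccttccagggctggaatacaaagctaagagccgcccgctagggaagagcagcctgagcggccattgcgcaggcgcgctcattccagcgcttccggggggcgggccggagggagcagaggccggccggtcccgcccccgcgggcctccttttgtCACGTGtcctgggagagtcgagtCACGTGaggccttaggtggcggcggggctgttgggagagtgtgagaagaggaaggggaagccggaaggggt
Atg5: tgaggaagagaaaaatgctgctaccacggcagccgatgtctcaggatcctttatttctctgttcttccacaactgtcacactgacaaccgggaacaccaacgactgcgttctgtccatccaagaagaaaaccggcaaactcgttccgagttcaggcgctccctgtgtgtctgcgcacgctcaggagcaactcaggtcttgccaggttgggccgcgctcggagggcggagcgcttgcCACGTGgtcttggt
None of the 3 genes passed the test for mRNA: their log2 fold changes were 0.07, -0.04 and -0.14, at adjusted p-values of 0.667, 0.690 and 0.191 in edgeR.

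Around the 38 members, 128 further genes of the pathway were described as other core genes (13), fusion genes (15), selective autophagy receptors (18), mTORC1 and AMPK signalling genes (36) and lysosome genes (46). All 128 were tested, 1 fell and 0 rose, with a median log2 fold change of -0.05. Akt1s1, which encodes PRAS40, a subunit that restrains the growth kinase complex mTORC1, had 36.6 to 41.5 CPM in HET (median 40.7), against 42.9 to 52.3 CPM in WT (median 46.4). All 7 HET libraries lay below all 7 WT libraries. The log2 fold change was -0.24 (SE 0.05) with an adjusted p of 0.0461 in edgeR, and -0.18 with the excitatory covariate (adjusted p 0.243). The call held in 3 of 14 fits with 1 library left out (without HET 5, HET 6 or WT 4). The same separation was seen for 2 subunits of the proton pump that acidifies the lysosome, Atp6v1f and Atp6v0b, which are named after their values were seen. Atp6v1f averaged 65.1 ± 2.04 CPM in HET, against 74.2 ± 3.83 CPM in WT, and Atp6v0b 131 ± 5.19 CPM in HET, against 149.7 ± 6.94 CPM in WT (SD, n = 7 each), at adjusted p-values of 0.0525 and 0.0546 in edgeR. Neither passed the test, and over all genes tested 0.283% had all HET libraries below all WT libraries. At an adjusted p under 0.1 there were 8 of the 128 genes, 6 lower and 2 higher in HET, beside 6.62% of all genes. The higher ones were Prkaa1 at 0.32 (adjusted p 0.0619, edgeR) and Rragb at 0.37 (adjusted p 0.0850, edgeR).

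The number of members called depended on which library was left out. It was 0 when HET 1, HET 2, HET 4 or HET 7 was left out, and when any 1 WT library other than WT 4 was. Without HET 3 it was 1, Atg2b. Without HET 5 it was 2, Atg2b and Atg12, where 1.32% of all genes were called. Without WT 4, the WT library lowest in excitatory markers, edgeR called 9 members: Atg2b and Optn rose, and Atg101, Atg12, Atg4c, Atg9a, Map1lc3a, Map1lc3b and Ulk2 fell, where 9.18% of all genes were called. Without HET 6, the HET library highest in excitatory and lowest in oligodendrocyte markers, it called Atg2b, Atg101, Gabarapl1 and Map1lc3a, where 6.09% were called. With the excitatory covariate 0 members were called. In that fit 6 members stood at an unadjusted p under 0.05, 2 higher and 4 lower in HET, beside 12.2% of all genes. The sign of the estimate was kept by 26 of the 38 members, and by 13250 of the 18050 genes tested. The share of these differences that tissue makeup carries was not tested beyond these fits.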

How the data were processed

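RNA was measured in 7 HET and 7 WT frontal cortices; the extraction protocol names that number of mice, which the p-values take as independent. Samples labelled Mutant were taken as the HET mice of that protocol, and those labelled Wild-Type as WT. The authors deposited 1 table of raw gene counts for each RNA library, made with featureCounts 2.0.1 over exons of Ensembl GRCm38 release 102 with strand ignored (setting 0), per the file headers. The command in the header counts mates singly, and reads over several genes were left out, so overlapping and antisense genes cannot be told apart. For RNA, Trimmomatic and STAR were named, with Subread and DESeq2 and without versions, per the submitters' processing notes. The ATAC-seq files deposited by the authors are 2 peak lists (chromosome, start and end on mm10) named as merged within a genotype; the samples merged (3 are labelled Mutant and 3 Wild-Type), their depth and the caller's settings were looked for, and none is given in the sources used here. Bowtie2 2.4.4, SAMtools 1.9 and MACS3 were named, per the submitters' processing notes. The PAT and Control samples of the ATAC-seq and the 4 Hi-C samples were not analysed here.

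Members were matched by symbol (55141 of 55487 IDs paired with one). Counts were filtered by edgeR's filterByExpr, scaled by TMM and fitted in edgeR 4.0.16 with genotype alone in the model, by its robust, two-sided quasi-likelihood test; p-values were adjusted by Benjamini-Hochberg over 18050 genes, and 0.05 was the threshold. Biological variation between libraries was 0.248 as a common coefficient. CPM are TMM-scaled, and TPM use the annotated exon length without TMM scaling, so TPM are not compared between genotypes. The 91 library pairs differed by at least 9.38 in chi-square per degree of freedom, so none looked like a second copy. The edgeR steps were checked on simulated counts, in which the changes put in were larger than any member's estimate. That check does not cover differences as small as those of the members.

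The members, role groups, pathway lists and markers were chosen with earlier results of these data known. Values in every library or their range are given for called members, the 2 of smallest p and the 1 of highest per-length WT level in each role group, the 5 of largest fold change, members of the 5 paralog ratios and members with a promoter peak in 1 list; of the pathway lists, up to 4 called genes each. Alternatives tried were DESeq2 1.42.0, the size factors of DESeq2 within edgeR, no filter on counts, 1 CPM in 7 libraries, limma-voom (limma 3.58.1) with sample weights, marker covariates, a replicate block, an adjusted p under 0.1, each library left out, and other peak windows. Fits without HET 1 and HET 4, or also WT 4, and peaks at any RefSeq start were chosen after seeing the data.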

Additional observations from a re-analysis of the deposited data

Results flagged for a closer look

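In 9 of 72 sets of 7 values (named members, paralog ratios and marker means, in each genotype), the highest or lowest library stood far from its nearest neighbour, with a gap past Dixon's 95% critical share of the group's range; chance alone gives this in about 1 in 20 sets. Atg13 stood apart in both genotypes, with HET 6 highest at 110.8 CPM (next 103) and WT 1 highest at 112 CPM (next 101). Pik3c3 was highest in HET 4, at 55.9 CPM (next 49.2). Map1lc3b was lowest in WT 4, at 188 CPM (next 219.7). The Ulk2 over Ulk1 ratio was highest in HET 5, at 1.52 (next 1.27). Marker means on the log2 CPM scale set the same libraries apart: excitatory markers were lowest within WT in WT 4, at 5.49 (next 6.86), inhibitory markers were lowest within HET in HET 4, at 5.95 (next 6.54), and oligodendrocyte markers were lowest within HET in HET 6, at 7.56 (next 9.04). Thalamic markers were highest within WT in WT 7, at 5.82 (next 4.30). What sets these libraries apart was not tested.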

How the results depend on the processing

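The number of members called was 6 with DESeq2, 5 with limma-voom and 5 at an adjusted p under 0.1, and 0 with no filter on low counts, with the excitatory covariate and with the 3 marker covariates. Without HET 1 and HET 4 it was 0, and without WT 4 as well it was 3 (Atg2b, Atg101 and Map1lc3a). With 1 library left out it ran from 0 to 9. The 128 other pathway genes gave 11, 17, 8, 0, 0 and 0 calls under the same first settings, 0 and 5 without those libraries, 2 with DESeq2's size factors, 3 with the 1 CPM filter and 0 to 15 with 1 library left out. All genes gave 1513, 1886, 1195, 106, 11 and 16 calls, 13 and 692 without those libraries and 11 to 1672 with 1 left out. The same replicate numbers did not pair the mice (correlations of deviations from -0.28 to 0.33); a replicate block gave 0 members, 0 other pathway genes and 10 genes in all. Among pairs in that replicate block, differences were -0.17 for Ulk2 over Ulk1 and 0.20 for Atg2b over Atg2a, each at an adjusted exact sign-flip p of 0.117. Without HET 1 and HET 4 these ratios differed by -0.15 and 0.16, and without WT 4 as well by -0.13 and 0.18; with 1 library left out by -0.22 to -0.15 and 0.18 to 0.25. Counts of members with promoter peaks stayed within 1.5 times under 5 other settings.

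Of 504 estimates of named members under alternatives, 438 kept direction and call, 15 lost and 21 gained the call, and 30 turned sign. Atg2b was the only named member called in the main fit, so all 15 lost calls were those of Atg2b. For the other named members, keeping the call meant staying short of the threshold. With the excitatory covariate and with 3 marker covariates, in that order, Ulk1 turned to 0.080 and 0.092, Sqstm1 to -0.0072 and -0.0075, Lamp1 to -0.11 and -0.092, and Tfeb to -0.092 and -0.088. Without HET 1 and HET 4, and then without WT 4 as well, Sqstm1 turned to -0.015 and -0.019 and Lamp1 to -0.031 and -0.0033. With limma-voom Atg13 turned to -0.0040 and Sqstm1 to -0.030; Gabarap turned to 0.0027 with the 1 CPM filter and 0.0010 in the replicate block. With 1 library left out, estimates ran from -0.083 to 0.014 for Ulk1, -0.014 to 0.047 for Atg13, -0.026 to 0.027 for Gabarap, -0.0064 to 0.062 for Sqstm1 and -0.048 to 0.0053 for Lamp2. The cause was not tested. Peak lists without heights, depth or replicates allow counts alone.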
